A study of Homo sapiens with 3 samples.

Results

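Asynchronous cultures of Molm13, a human line from an acute myeloid leukemia with an internal tandem duplication in FLT3, were exposed for 6 h to DMSO (the vehicle), to 50 nM pyrvinium or to 100 nM pyrvinium, an anthelmintic drug, and their RNA was sequenced with 1 library per condition. A single line was used, and no separate cultures back any value. The 39 nuclear genes described here were listed by name as factors of mitochondrial DNA replication, transcription, RNA processing and RNA decay. Their measured values were not a criterion, but earlier results of these data were known when the list was chosen. All 39 were found among the 25702 genes of the count files by gene identifier, and all 39 had at least 10 counts in at least 1 library, as did 12879 genes in all. They were then grouped by role.

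The 3 libraries held 23165771, 22677038 and 24075123 counts in the order DMSO, 50 nM and 100 nM. The myeloid leukemia markers FLT3, CD33, LYZ, HOXA9, MEIS1, SPI1 and CEBPA each had at least 1346 counts in every library, whereas MPO, CSF1R and ITGAM were low at 57 to 450 counts. The T cell gene CD3E, the B cell gene MS4A1 and the epithelial gene EPCAM had 0 or 1 count in each library, and no other marker of T, B, erythroid, epithelial or stromal cells exceeded 26.

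Mitochondrial DNA is transcribed from both strands into long precursors by a dedicated RNA polymerase that is encoded in the nucleus. The precursors are cut at the tRNAs that separate most coding genes. The released mRNAs and rRNAs are then variously modified, polyadenylated, bound by stabilizing proteins and finally degraded, all by imported proteins. Replication of the genome uses a further set of imported enzymes, and nuclear transcription factors such as NRF1 and GABPA are known activators of many of these genes.

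Changes are given as log2 fold changes of counts scaled to library size by edgeR's TMM method, with a 95% exact interval that covers counting error only. A gene was called when its log2 fold change between a pair of libraries was at least 0.32 in size (25% higher or 20% lower) and its p in an exact binomial test of the counts, adjusted by Benjamini-Hochberg over all genes tested, was 0.05 or less. With 1 library per condition there was no replicate check, and the test compares libraries, not conditions. The verbs rose and fell are used for called genes only.

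By their summed counts, the nuclear factors were nearly level after pyrvinium, although more members lay below DMSO than above it. Their summed counts made up 0.402% of the DMSO library (95% Wilson interval 0.399% to 0.404%). The share was 0.403% at 50 nM (0.400% to 0.405%) and 0.399% at 100 nM (0.396% to 0.401%). LRPPRC alone gave 15779 of the 93034 member counts in DMSO and 18368 of 96037 at 100 nM, so these shares lean on 1 abundant gene. At 100 nM against DMSO, 22 of the 39 genes lay within 10% of the DMSO value and 33 within 20%. Of all genes tested, 39.3% and 66.8% did so, but that background was counted more thinly. The median of the mean counts was 1583.3 for the members and 637.0 for all genes tested. At 100 nM, 84.62% of the members and 70.15% of all genes tested lay inside the fold threshold. When genes averaging under 100 counts were left out of the background, its share was 79.31%, nearer to that of the members. The median log2 fold change of the 39 genes was -0.06 at 100 nM and -0.01 at 50 nM. Over all genes tested, the medians were -0.0023 and 0.0007, and over genes averaging at least 100 counts they were -0.0159 and -0.005. At 100 nM, 25 members lay below DMSO and 14 above it, beside 6487 and 6392 of the 12879 genes tested. Of the 9979 genes averaging at least 100 counts, 5274 lay below DMSO and 4705 above it. The unadjusted intervals of 13 members lay below 0 and those of 8 above it, beside 3257 and 3096 of the 12879 genes tested. Of the 9979 genes averaging at least 100 counts, a background nearer in depth, 3054 lay below 0 and 2706 above it. At 100 nM against DMSO, 1 member (MRM1) was called higher and 4 (TRMU, REXO2, SLIRP and FASTKD5) were called lower. Of all genes tested, 10.5% were called higher and 8.32% lower in that comparison, so the members' 2.56% called higher was below that background and their 10.3% called lower was near it. At 50 nM against DMSO, MRM1 rose and TRMU fell, against 4.71% and 3.88% of all genes tested that were called in those directions. Between 100 nM and 50 nM, 0 members were called in this exact binomial test, and 2.02% of all genes tested were called higher and 1.24% lower. In that last comparison, the unadjusted intervals of 4 members lay above 0 and those of 10 below it. Beside them stood 1606 and 1838 of the 12879 genes tested, and 1426 and 1718 of the 9979 averaging at least 100 counts. Without the fold threshold, 8 members were higher and 11 lower at 100 nM against DMSO with an adjusted p of at most 0.05, beside 21.4% and 22.2% of all genes tested. None of the 5 calls reached 1.5-fold. When edgeR's exact test was given a biological coefficient of variation of 0.1 to stand for the unmeasured spread between cultures, 0 members were called at either dose, beside 1.89% of all genes tested at 100 nM and 0.28% at 50 nM. With its p unadjusted, 1 member passed at 100 nM and 0 at 50 nM, beside 11.3% and 4.56% of all genes tested. In edgeR's quasi-likelihood test for a trend with dose, 3 members were higher and 6 lower with an adjusted p of 0.05 or less. Of all genes tested, 10.1% and 10.4% were. That test has 1 residual degree of freedom, the departure of 3 libraries from a straight line, and does not measure the spread between cultures.

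**Figure D1:**
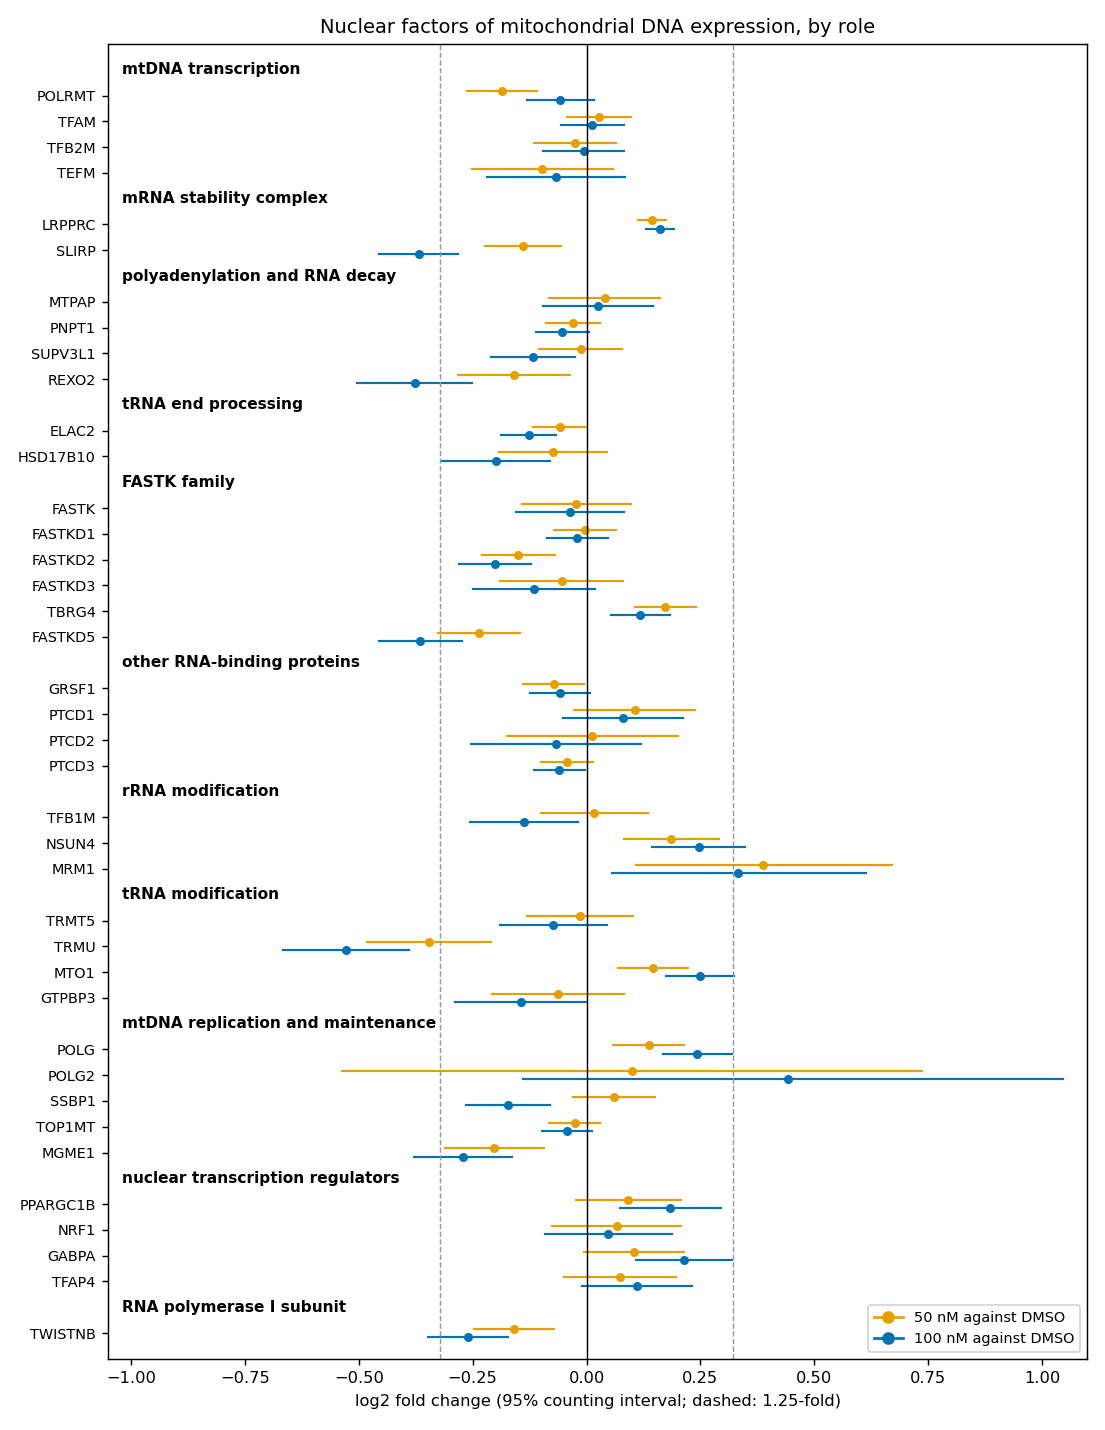
Log2 fold change (x axis) of each of the 39 genes at 50 nM and at 100 nM against DMSO, grouped by role. Points are values of 1 library against another, lines are 95% counting intervals, and dashed lines mark the fold threshold (0.32). Both comparisons share the DMSO library, and most points lie between the dashed lines.

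The promoters of several members carry the letters bound by NRF1 or by GABPA. Windows from 250 bases before to 50 bases after each gene's start were found for 34 of the 39 members in the RefSeq table of GRCh38.p14. On either strand, GCATGCGC, the core of the NRF1 site, was found in 5 of the 34 windows (14.7%), against 6.13% of 9705 windows of genes tested here. CCGGAAGT, the ETS site that GABPA recognizes, was found in 6 (17.6%), against 9.47%. Either was present in 10 of the 34 (29.4%), against 14.8%, and both only in POLRMT among them. CAGCTG, an E-box that TFAP4 binds, was in 3 windows (8.82%, against 16.7%), and CACGTG, the other E-box searched, was in 2 (5.88%, against 10.7%). The letters TGATGNAA of the ATF4 element were in 0 of the 34 and in 1.66% of the windows of genes tested. No searched motif contains another, but the NRF1 core can share bases with its own reverse complement, GCGCATGC. A match is a description of letters and not of bound protein.

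The stretches below show such matches in 3 genes of the transcription and rRNA methylation machinery. They also show those in TRMU and MRM1, the members called at both doses. Of the other called members, SLIRP had no searched match, REXO2 had only CACGTG, and FASTKD5 had no window. Each stretch runs 5′ to 3′ on the gene's strand and ends before the gene's start, with the NRF1 core and ETS letters in capitals. They lie, in GRCh38.p14, at chr19:633538-633689 (minus strand) for POLRMT, chr1:246566262-246566296 (minus) for TFB2M, chr6:155314587-155314636 (minus) for TFB1M, chr22:46335685-46335713 (plus) for TRMU and chr17:36601515-36601562 (plus) for MRM1.
POLRMT: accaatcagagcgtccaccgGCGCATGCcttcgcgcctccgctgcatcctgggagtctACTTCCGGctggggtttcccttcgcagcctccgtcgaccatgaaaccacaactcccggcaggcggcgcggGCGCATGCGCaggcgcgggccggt
TFB2M: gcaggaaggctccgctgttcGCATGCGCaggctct
TFB1M: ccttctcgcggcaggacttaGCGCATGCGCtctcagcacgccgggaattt
TRMU: gaccctacggccggggcgggACTTCCGGc
MRM1: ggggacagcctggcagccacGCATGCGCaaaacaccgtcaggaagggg

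The machinery that transcribes mitochondrial DNA lay nearest to DMSO of all role groups at 100 nM, with a median of -0.03. POLRMT, the mitochondrial RNA polymerase (Entrez 5442, hg19 chromosome 19 from 617223 to 633568), had 3018 counts in DMSO, 2591 at 50 nM and 3017 at 100 nM. Only the 50 nM library was low for this gene, with a log2 fold change of -0.19 against DMSO (interval -0.26 to -0.11), while at 100 nM it was -0.06 (-0.13 to 0.02). TFAM, which packages mitochondrial DNA and activates its promoters (chromosome 10 from 60145176 to 60155897), had 3295, 3279 and 3459 counts in the same order. Its log2 fold change was 0.01 at 100 nM, and its counting interval from -0.06 to 0.08 lay well inside the threshold. TFB2M, which opens the promoter, was at -0.01 and the elongation factor TEFM at -0.07, with intervals that spanned 0. All 4 intervals at 100 nM spanned 0, and none reached the threshold in either direction.

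The partners of the complex that keeps mitochondrial mRNAs stable and polyadenylated differed from DMSO in opposite directions. They are LRPPRC, a large pentatricopeptide repeat protein, and SLIRP, its small RNA-binding partner. LRPPRC (Entrez 10128, chromosome 2 from 44113363 to 44223144) had 15779 counts in DMSO, 17026 at 50 nM and 18368 at 100 nM. Both pyrvinium libraries were higher than DMSO, by 0.14 (0.11 to 0.18) and 0.16 (0.13 to 0.19) on the log2 scale, or 11.9% at 100 nM, which stayed below the threshold. SLIRP (Entrez 81892, chromosome 14 from 78174425 to 78183941) had 2464, 2184 and 1985 counts and fell by 22.6% at 100 nM, a log2 fold change of -0.37 (-0.45 to -0.28, exact binomial test, adjusted p = 3.41e-16). The ratio of LRPPRC to SLIRP counts, which needs no scaling between libraries, was 6.40 in DMSO, 7.80 at 50 nM and 9.25 at 100 nM, with 95% exact intervals of 6.14 to 6.68, 7.46 to 8.15 and 8.83 to 9.70. The intervals of the 3 libraries did not overlap, and the ratio was lowest in DMSO and highest at 100 nM. Per kb of transcript SLIRP was the most abundant member in every library, with a level of 268 scaled counts per kb in a library of 1000000 in DMSO, 243 at 50 nM and 207 at 100 nM.

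**Figure D2:**
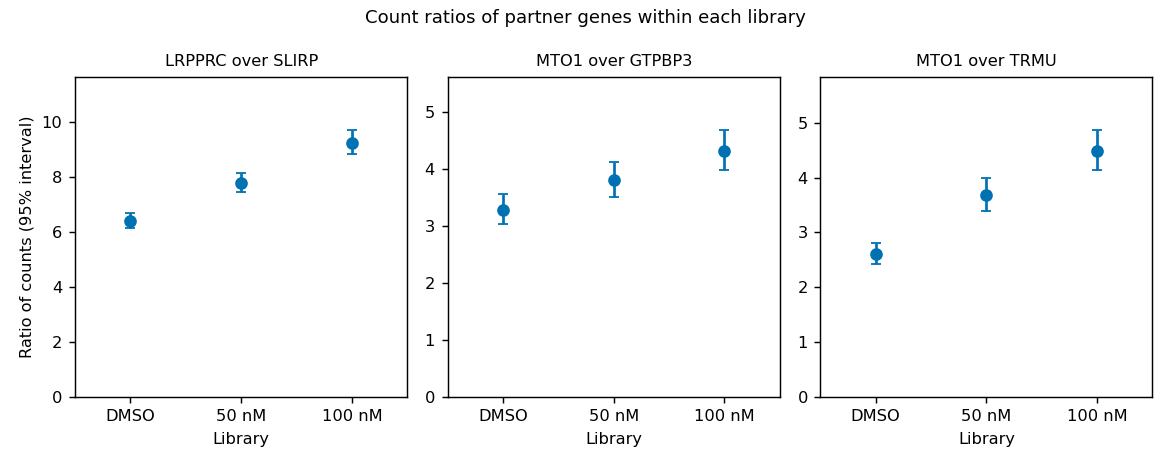
Ratio of the counts (y axis, from 0) of partner genes within each of the 3 libraries (x axis): LRPPRC over SLIRP, MTO1 over GTPBP3 and MTO1 over TRMU. Points are single libraries and bars are 95% exact intervals for counting error. The ratio was lowest in DMSO and highest at 100 nM in each panel. These ratios were chosen after values were seen. POLG over SSBP1 had the same order, and PNPT1 over SUPV3L1 and TFAM over POLRMT, not drawn, did not.

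Of the genes for polyadenylation and decay, the last enzyme of decay was the one called. REXO2, which degrades the short oligoribonucleotides left by other nucleases (Entrez 25996, chromosome 11 from 114310108 to 114321001), had 1160 counts in DMSO, 1014 at 50 nM and 929 at 100 nM. It fell by 23.0% at 100 nM, a log2 fold change of -0.38 (-0.50 to -0.25, exact binomial test, adjusted p = 2.15e-08), and the 50 nM value of -0.16 was not called. The poly(A) polymerase MTPAP was at 0.02 at 100 nM and PNPT1, the exonuclease of the degradosome, at -0.05, with intervals that spanned 0. SUPV3L1, the helicase that works with PNPT1, was at -0.12 (-0.21 to -0.03), a difference of -7.79%. The ratio of PNPT1 to SUPV3L1 counts was 2.40, 2.37 and 2.51 in DMSO, 50 nM and 100 nM, and the 3 intervals overlapped.

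Both genes of tRNA end processing were slightly lower. ELAC2, the nuclease that trims the 3′ ends of tRNAs, had 4617, 4330 and 4399 counts and a log2 fold change of -0.13 at 100 nM (-0.19 to -0.07), a difference of -8.41% in scaled counts. HSD17B10, a dehydrogenase that is also a subunit of mitochondrial RNase P, was at -0.20 (-0.32 to -0.08). The other 2 proteins of that RNase P, in a wider list of pathway genes, were at -0.29 for TRMT10C and -0.28 for PRORP. None of the 4 reached the threshold.

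In the FASTK family of mitochondrial RNA-binding proteins, values ranged from -0.36 to 0.12 on the log2 scale at 100 nM. FASTKD5, which is needed to process precursors whose ends are not marked by tRNAs (Entrez 60493, chromosome 20 from 3127165 to 3140532), had 2223 counts in DMSO, 1843 at 50 nM and 1796 at 100 nM. It fell by 22.3% at 100 nM, a log2 fold change of -0.36 (-0.46 to -0.27, exact binomial test, adjusted p = 2.32e-14). The annotation gives FASTKD5 and UBOX5 121 shared bases on the same strand, 4.2% of the length of FASTKD5, and reads there are uncertain. FASTKD2, which binds the large rRNA, was at -0.20 (-0.28 to -0.12). TBRG4, also called FASTKD4 and known to stabilize several mitochondrial mRNAs, was on the other side, at 0.12 at 100 nM (0.05 to 0.18) and 0.17 at 50 nM (0.11 to 0.24). FASTK, whose mitochondrial form is required for MT-ND6 mRNA, had 1160, 1115 and 1177 counts and was at -0.04 at 100 nM (-0.15 to 0.08). FASTKD1 at -0.02 and FASTKD3 at -0.12 also had intervals that spanned 0.

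The remaining RNA-binding proteins differed little. GRSF1, a protein of the RNA granules where transcripts are processed, was at -0.06, and the pentatricopeptide repeat proteins PTCD1, PTCD2 and PTCD3 were at 0.08, -0.07 and -0.06. PTCD3, a component of the small mitochondrial ribosomal subunit, had the only interval of the 4 below 0, from -0.12 to -0.0033, and its adjusted p of 0.0797 in the exact binomial test missed the threshold.

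The rRNA-modifying enzymes did not move as a group. MRM1, a methyltransferase of the large rRNA (Entrez 79922, chromosome 17 from 34958025 to 34965407), had 190 counts in DMSO, 243 at 50 nM and 249 at 100 nM. It rose at both doses, by 0.39 on the log2 scale at 50 nM (0.11 to 0.67) and by 0.33 at 100 nM (0.055 to 0.61), with adjusted p-values of 0.0224 and 0.0402 in the exact binomial test. Both intervals are wide because MRM1 is counted thinly, and at 100 nM the call was lost when genes with low counts were also tested. NSUN4, which methylates the small rRNA, had 1420, 1578 and 1752 counts and was 18.6% above DMSO at 100 nM, a log2 fold change of 0.25 (0.14 to 0.35). TFB1M, the dimethyltransferase of the small rRNA, was on the lower side at 100 nM with -0.14 (-0.26 to -0.02, adjusted p = 0.0538 in the exact binomial test) and at 0.02 at 50 nM. So 2 of the 3 genes were above DMSO and 1 below it at 100 nM.

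The tRNA-modifying enzymes held the largest fall of all 39 genes. TRMU, which adds sulfur to the wobble uridine of certain mitochondrial tRNAs (Entrez 55687, chromosome 22 from 46731298 to 46753237), had 1013 counts in DMSO, 778 at 50 nM and 731 at 100 nM. It fell by 21.3% at 50 nM (log2 fold change -0.35, -0.48 to -0.21, exact binomial test, adjusted p = 6.05e-06) and by 30.6% at 100 nM (-0.53, -0.67 to -0.39, adjusted p = 4.62e-13). MTO1 (chromosome 6 from 74171454 to 74211179) and GTPBP3 (chromosome 19 from 17448356 to 17453540) together place a taurine group on the same uridine. MTO1 had 2649, 2864 and 3276 counts, 18.9% above DMSO at 100 nM (log2 fold change 0.25, 0.18 to 0.32), whereas GTPBP3 had 806, 754 and 759 (-0.14, -0.29 to 0.0012). The ratio of MTO1 to GTPBP3 counts was 3.29 (3.04 to 3.56), 3.80 (3.50 to 4.12) and 4.32 (3.99 to 4.68) in the same order, and only the DMSO and 100 nM intervals were apart. The ratio of MTO1 to TRMU counts was 2.62 (2.43 to 2.81), 3.68 (3.40 to 3.99) and 4.48 (4.14 to 4.86), with no overlap between libraries. That pair holds the largest fall and was chosen after values were seen, so the separation is a description and not a test. TRMT5, which methylates the base next to the anticodon, was at -0.07 with an interval that spanned 0.

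Among the replication and maintenance genes, POLG and SSBP1 went in opposite directions at 100 nM. POLG, the catalytic subunit of the mitochondrial DNA polymerase (chromosome 15 from 89859536 to 89878026), had 2595 counts in DMSO, 2786 at 50 nM and 3196 at 100 nM. The 100 nM library was the highest, 18.4% above DMSO or 0.24 on the log2 scale (0.17 to 0.32). SSBP1, the single-stranded DNA-binding protein of the replication fork (chromosome 7 from 141438176 to 141450257), had 1993, 2030 and 1839 counts. It was level at 50 nM (0.06, -0.03 to 0.15) and differed by -11.3% at 100 nM (-0.17, -0.27 to -0.08). The ratio of POLG to SSBP1 counts was 1.30 (1.23 to 1.38), 1.37 (1.30 to 1.45) and 1.74 (1.64 to 1.84) in the same order, so that the 100 nM library stood above the other 2. MGME1, a nuclease that trims DNA ends during replication, had 1513, 1284 and 1304 counts and a log2 fold change of -0.27 at 100 nM (-0.38 to -0.16). The topoisomerase TOP1MT was level at -0.04 (-0.10 to 0.01). POLG2, the accessory subunit of the polymerase, had only 43, 45 and 61 counts, and its value of 0.44 at 100 nM had an interval from -0.14 to 1.05.

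The 4 nuclear transcription regulators all lay slightly above DMSO at 100 nM, none by as much as the threshold. GABPA had 1329 counts in DMSO, 1395 at 50 nM and 1603 at 100 nM, where it stood 15.9% above DMSO (0.21 on the log2 scale, 0.11 to 0.32). Its exons share 10.8% of their length with ATP5PF on the opposite strand, and those of POLG 9.7% with FANCI, so a part of these counts is uncertain. PPARGC1B, a coactivator of mitochondrial gene expression, had 1222, 1272 and 1444 counts and was at 0.18 (0.07 to 0.29). NRF1 was at 0.05 and TFAP4, an E-box-binding factor not specific to mitochondria, at 0.11, with intervals that spanned 0. The related coactivator PPARGC1A had 0, 1 and 1 counts, at or under a floor of 3 counts, so no fold change is given. Its 0 counts in the DMSO library allow a share of up to 1.3e-05% of that library. Of 6 further regulators tested in the wider list of pathway genes, 4 were above DMSO at 100 nM and 2 below it. The 2 were ESRRA at -0.25 (-0.35 to -0.15) and YY1 at -0.22 (-0.30 to -0.15), neither of them called.

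TWISTNB, although listed with these genes, encodes a subunit of nuclear RNA polymerase I and has the current symbol POLR1F. It is distinct from the mitochondrial helicase Twinkle, whose gene is TWNK. TWISTNB had 2268, 1984 and 1971 counts and differed by -16.5% at 100 nM (log2 fold change -0.26, -0.35 to -0.17). TWNK had 2309, 2508 and 2423 counts, 0.01 at 100 nM and 0.15 at 50 nM. Without TWISTNB and the 4 transcription regulators, the median of the other 34 genes was -0.06 at 100 nM, with the same 5 genes called.

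**Figure D3:**
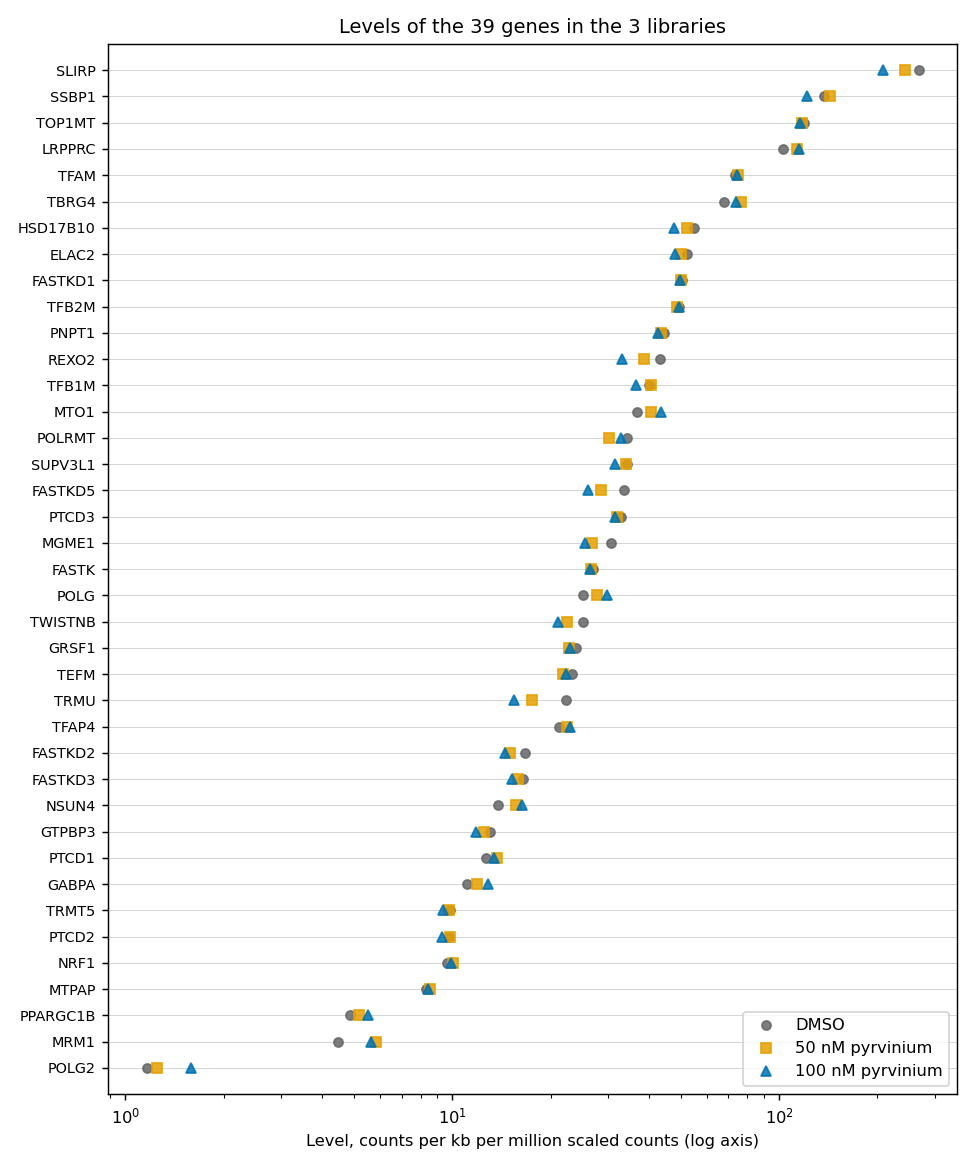
Level of each of the 39 genes (y axis, ordered by the DMSO level) in the 3 libraries, in scaled counts per kb of transcript in a library of 1000000 (x axis, log scale). Each symbol is 1 library. Levels ran from 1.16 for POLG2 to 268 for SLIRP in DMSO, and for most genes the 3 symbols nearly coincide.

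The members differed far more from each other in level than any of them differed between libraries. On the same scale of levels per kb, SLIRP (268), SSBP1 (137), TOP1MT (119) and LRPPRC (103) were the 4 most abundant in DMSO, each above the level of at least 94.4% of the genes tested. MRM1 (4.47) and POLG2 (1.16) were the lowest. TFAM stood at 73.4 and POLRMT at 34.3, and the ratio of their counts was 1.09, 1.27 and 1.15 in DMSO, 50 nM and 100 nM.

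The summed counts of the mitochondrially encoded transcripts differed more between the libraries than those of the nuclear factors. The 13 mRNAs of mitochondrial DNA had 1135223 counts in DMSO, 868818 at 50 nM and 846744 at 100 nM, with log2 fold changes of -0.3515 (-0.3556 to -0.3475) and -0.48 (-0.484 to -0.4759) against DMSO. The summed counts of the 39 nuclear factors differed by 0.0078 (-0.0054 to 0.021) and -0.0112 (-0.0242 to 0.0019). Of that sum, LRPPRC alone gave 15779 of 93034 counts in DMSO and 18368 of 96037 at 100 nM. For each count on a nuclear factor there were 12.2 counts on the 13 mitochondrial mRNAs in DMSO, 9.51 at 50 nM and 8.82 at 100 nM. For the 2 rRNAs the number was 1.72, 2.11 and 3.98. The kit selects polyadenylated RNA, and the part of that selection in the rRNA and mRNA values, that of MT-ND6 included, was not tested.

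**Figure D4:**
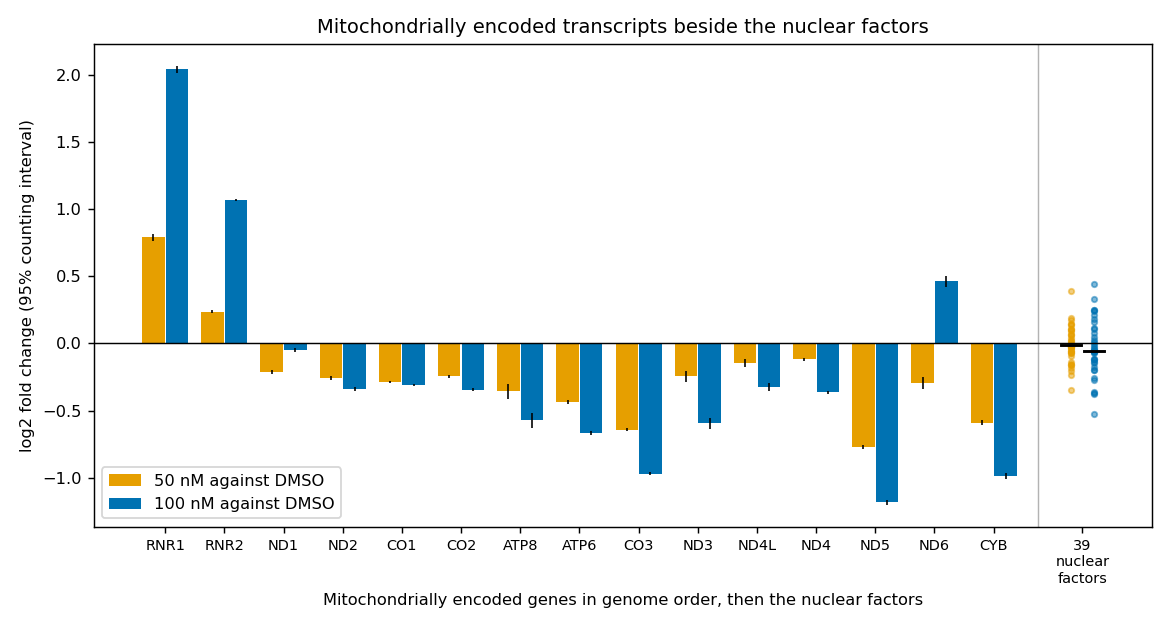
Log2 fold change (y axis) of the 15 mitochondrially encoded genes in genome order, as bars with 95% counting intervals, for 50 nM and 100 nM against the shared DMSO library. At the right, each point is 1 of the 39 nuclear factors and the black line is their median (-0.01 at 50 nM and -0.06 at 100 nM).

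Single transcripts are set here beside factors known to act on them, with log2 fold changes at 100 nM against DMSO. MT-ND6, the mRNA that depends on FASTK, had 9188, 7332 and 13170 counts, 0.46 above DMSO at 100 nM on the log2 scale, while FASTK was at -0.04. MT-ND6 lies on the other strand from its neighbours, and since it is not stated whether the counting used strand, antisense reads cannot be told apart. MT-ATP8, MT-ATP6 and MT-CO3, which share a precursor whose inner border is processed with FASTKD5, were at -0.57, -0.67 and -0.97, beside -0.36 for FASTKD5. MT-ATP8 and MT-ATP6 overlap, and their separate counts are uncertain. MT-CO1, whose 5′ end also lacks clean processing without FASTKD5, was at -0.31 (-0.32 to -0.30), just short of the threshold. MT-ND3, which rises in the absence of FASTKD1, was at -0.60 with FASTKD1 at -0.02, and MT-CYB, which is known to need PTCD2, was at -0.99 with PTCD2 at -0.07. For MT-ND2, MT-CO2, MT-ND4L and MT-ND4 the values were -0.34, -0.34, -0.32 and -0.37. The lowest and the highest of the mRNAs below DMSO were MT-ND5, at -1.18 with 76054, 43481 and 34880 counts, and MT-ND1, which at -0.05 was nearly level with DMSO and was not called. MT-ND1 had 66032, 55645 and 66378 counts, so that only its 50 nM library was low. The rRNAs MT-RNR1 and MT-RNR2 were at 2.04 and 1.07, and the 3 members that modify them between -0.14 and 0.33. The 7 rRNA-modification genes of the wider pathway list ran from -0.24 to 0.24, with 6 below DMSO and 1 above it. None of the 7 was called. Whether any factor had a part in these differences was not tested.

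Differences in the wider pathway were also mostly small. Of 54 further nuclear genes of mitochondrial DNA maintenance, transcription, RNA processing and modification, 53 were tested, and at 100 nM 6 were called higher and 3 lower, with a median log2 fold change of -0.0055. These are 11.3% and 5.66% of the list, close to the 10.5% and 8.32% of all genes tested. Called higher were TK2, the mitochondrial thymidine kinase (0.70, 0.52 to 0.88), the protease LONP1 (0.39), the pseudouridine synthase PUS1 (0.36), the coactivator PPRC1 (0.34), QTRT1 of the queuine transferase (0.33) and OSGEPL1, a tRNA threonylcarbamoyl transferase (0.33). TK2 had 414 counts in DMSO, 639 at 50 nM and 700 at 100 nM, and at 50 nM its value was already 0.66. Called lower were DNA2, a helicase-nuclease shared with the nucleus (-0.42), the tRNA methyltransferase TRMT61B (-0.36) and MTFMT, which formylates the initiator tRNA (-0.35). All 4 MTERF family genes of transcription termination and ribosome assembly lay between -0.04 and 0.14. The 77 mitochondrial ribosomal protein genes had medians of -0.02 at the lower dose and -0.10 at the higher, with 1 called higher and 7 lower at 100 nM. The 7 are 9.09% of the list, near the 8.32% of all genes tested, whereas the 1 is 1.3%, below the 10.5% of all genes tested. At 100 nM, 54 of the 77 lay below DMSO, beside 6487 of the 12879 genes tested. The unadjusted intervals of 38 lay below 0 and those of 10 above it, beside 3257 and 3096 of the 12879 genes tested. Of the 9979 genes averaging at least 100 counts, 3054 lay below 0 and 2706 above it. No test was made between these lists.

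**Figure D5:**
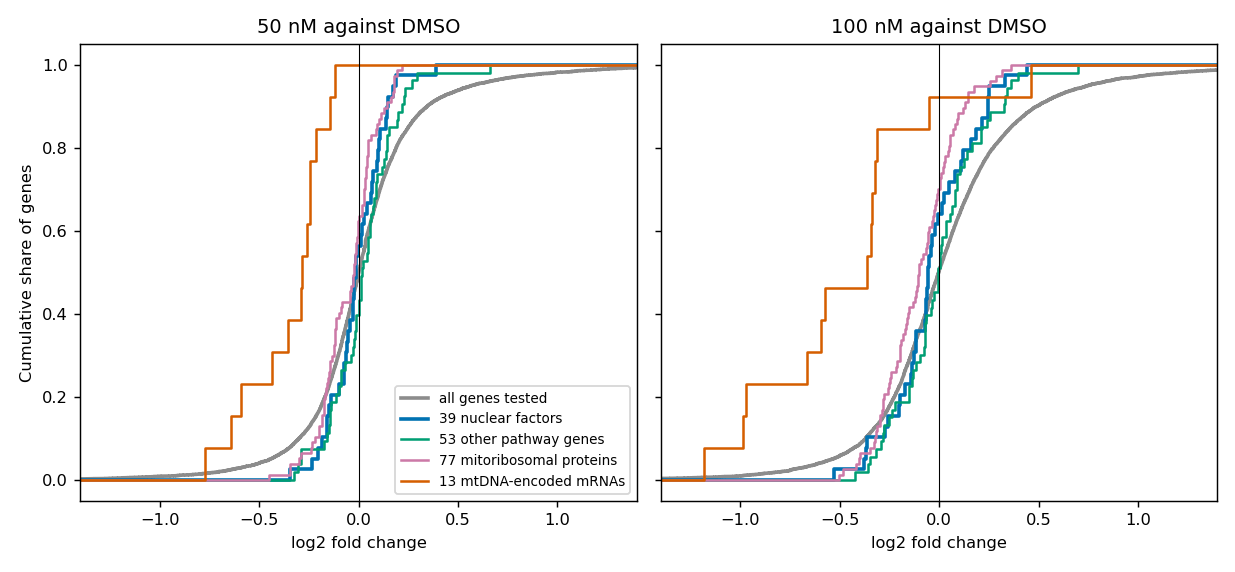
Cumulative share of genes (y axis) against log2 fold change (x axis) at 50 nM and 100 nM against DMSO for all genes tested, the 39 nuclear factors, 53 other pathway genes, 77 mitochondrial ribosomal proteins and the 13 mRNAs of mitochondrial DNA. The medians of the nuclear lists run from -0.10, for the mitochondrial ribosomal proteins at 100 nM, to 0.02. The median of the mitochondrial mRNAs is -0.29 at 50 nM and -0.37 at 100 nM.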

How the data were processed

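RNA of Molm13 cells was sequenced as 75 bp paired reads from strand-specific poly(A) libraries. Per the file headers and the paper, the authors used Rsubread with hg19 for alignment and counting, and the deposited values are whole-number counts per Entrez gene, 1 library per condition. Strand use in counting is not given in the sources used here, and 7 members share exon bases with a neighbour. The deposited table of EBSeq posterior probabilities and fold changes was not used. Conditions came from the sample titles.

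Counts were scaled with edgeR 4.0.16 (TMM, R 4.3.3), and the 12879 genes that reached 10 counts in any library were compared in pairs with a two-sided exact binomial test (scipy 1.17.1, Benjamini-Hochberg over all genes tested, log2 threshold 0.32, adjusted p at most 0.05). For log2 fold changes 0.5 was added to each count, and intervals are 95% Clopper-Pearson. P-values and intervals cover counting error only, without separate cultures. Levels are scaled counts per kb of the files' gene length in a library of 1000000.

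The members and lists were chosen with earlier results of these data known. All members, the mitochondrially encoded genes and the other pathway genes called at 100 nM (at most 10) were named. Mitochondrial ribosomal proteins were taken by symbol and mitochondrially encoded genes by position in GENCODE 44 on GRCh37. The count ratios of partner genes, TK2 and TWNK counts, and the mention of ESRRA and YY1 were chosen after values were seen. Other settings tried were scaling by DESeq2 1.42.0, by library totals or by TMM on nuclear genes only, 2 other count filters, 5 counts added, 1.5-fold and 2-fold thresholds, edgeR's exact test at a biological coefficient of variation set to 0.1 or 0.2, and a quasi-likelihood dose trend. The procedure was run on simulated counts with known changes, without and with spread between libraries (coefficient of variation 0.1). Those runs do not measure the spread between the cultures used here.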

Additional observations from a re-analysis of the deposited data

How the results depend on the processing

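The number of members called was 5 at 100 nM against DMSO, 2 at 50 nM and 0 between the doses with scaling by DESeq2, by library totals or by TMM on nuclear genes only, and with a mean of at least 100 counts, as in the text. Without a count filter it was 4 at 100 nM, because MRM1, at 0.33, no longer passed. At 1.5-fold and at the study's 2-fold, 0 members were called at either dose in the exact binomial test. In edgeR's exact test at a biological coefficient of variation set to 0.1 or 0.2, 0 members were called at either dose. With the same fold threshold and the p left unadjusted (chosen after seeing the data), 0.1 gave 1 member and 0.2 gave 0 at 100 nM, and both gave 0 at 50 nM. The true spread between cultures cannot be had from 1 library per condition. Of the other pathway genes, 9 were called at 100 nM, against 1 at 1.5-fold, 0 at 2-fold and 0 with a coefficient of 0.1 or 0.2 (unadjusted, 2 and 0). Without a fold threshold, 19 members passed the exact binomial test at 100 nM, and 9 passed edgeR's quasi-likelihood test for a trend with dose (1 residual degree of freedom), 3 higher and 6 lower, beside 10.1% and 10.4% of all genes tested. The median of the members ranged from -0.0593 to -0.0468 at 100 nM over all settings. No scaling moved the median of all genes by more than 0.0111 on the log2 scale, and no called member changed sign. No paired analysis was possible because each condition has 1 library.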

Other observations

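The 17 mitochondrial aminoacyl-tRNA synthetases, which charge the mitochondrially encoded tRNAs and work downstream of the tRNA-modifying enzymes, were all tested. At 100 nM against DMSO, 2 rose and 0 fell, in the exact binomial test, with a median log2 fold change of 0.04, and the median at 50 nM was 0.07. The 2 are 11.8% of the list, near the 10.5% of all genes tested that were called higher. SARS2, the seryl-tRNA synthetase, had 1418 counts in DMSO, 1618 at 50 nM and 2176 at 100 nM, so that it rose by 0.56 on the log2 scale at the higher dose. It was also called between 100 nM and 50 nM, at 0.34. WARS2, the tryptophanyl-tRNA synthetase, had 507, 603 and 673 counts and rose by 0.35 at 100 nM. The alanyl enzyme AARS2, at -0.14, and the cysteinyl enzyme CARS2, at -0.17, were among the 7 below DMSO, and neither was called. These genes were named after their values were seen.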
